A study of Mus musculus with 24 samples.

Results

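The response of the lung carcinoma line LLC1 to editing of B2m was set against that of the liver carcinoma line Hepa1-6. For each gene the quantity reported is a difference of differences, the change between guides in LLC1 minus the change between guides in Hepa1-6. Genes entered where the log2 value was at least 3.5 in at least 3 libraries of both lines, which left 13193 genes of the 34866 listed in the series. Nearest that limit were Fst inside, where the 3 highest libraries of its lower line reached at least 3.5248, and Ggt1 outside, where they reached at least 3.4805.

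The series profiled 4 mouse tumour lines by RNA-seq, and 12 of its 24 libraries are used here. LLC1 derives from the Lewis lung carcinoma, and Hepa1-6 from a hepatocellular carcinoma. In each line the cells carried either a guide RNA against B2m (sgB2m), made to knock the gene out, or a non-targeting control guide (sgNT), with 3 libraries per guide and line. All cells grew in the same serum-containing medium, outside an animal, with no other treatment named. The labels do not say whether an edited line is 1 clone or a pool, or whether the 3 libraries of a group came from separate cultures. Each p-value is thus set against the scatter among the libraries of a group, which may be technical. That scatter is pooled over the 4 groups for each gene, so each line's SE and p-value also draw on the other line's libraries. The guide and the outgrowth of a particular clone cannot be told apart.

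B2m encodes β2-microglobulin, the light chain that MHC class I heavy chains need to reach the cell surface, and its loss removes the peptide display read by CD8+ T cells. Several programs described below are each run by a small set of transcription factors. SREBP proteins leave the endoplasmic reticulum when sterol is scarce and switch on cholesterol and fatty acid synthesis. ATF4 is made when amino acids run short or proteins misfold and switches on amino acid import and synthesis. AP-1 and EGR factors answer growth factor and stress kinases within minutes, NF-kB answers inflammatory receptors and switches on chemokines, and STAT and IRF factors carry interferon signals. YAP and TAZ read cell shape and contact.

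Sequencing depth was 26.1 M to 28.1 M reads per LLC1 library and 25 M to 35.4 M per Hepa1-6 library (M, 1e+06). Transcripts of the mitochondrial genome took 4.52% ± 0.0833 of reads in LLC1 sgB2m and 4.43% ± 0.0557 in LLC1 sgNT, against 4.19% ± 0.114 in Hepa1-6 sgB2m and 5.09% ± 0.11 in Hepa1-6 sgNT (SD, n = 3 each). Hepa1-6 expressed 21 of 27 hepatocyte markers at a mean log2 value of at least 6, including Alb and Afp, while LLC1 expressed 1 of the 27, Rbp4. Of 13 alveolar markers 8 had values in LLC1 and 3 (Abca3, Hopx and Napsa) reached that level. In Hepa1-6 8 also had values and 2 (Abca3 and Hopx) reached it. The surfactant genes Sftpb and Sftpc did not exceed 2.95 normalised counts in any LLC1 library. Of 15 T and NK cell markers 3 had values in LLC1 and 2 in Hepa1-6, and these summed to at most 51 normalised counts in a library.

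B2m itself fell in both lines. LLC1 sgNT libraries held 16771, 16459 and 16455 normalised counts and LLC1 sgB2m libraries 4993, 5180 and 4963. Hepa1-6 sgNT libraries held 6670, 6570 and 6495 and sgB2m libraries 2599, 2672 and 2451. The groups did not overlap in either line, and transcript remained in every edited library. On the log2 scale the change was -1.71 ± 0.033 (SE) in LLC1 and -1.35 ± 0.033 in Hepa1-6, a difference of -0.36 ± 0.047 (adjusted p = 8.28e-06), so B2m belongs to the genes that moved the same way. The gene (ENSMUSG00000060802) lies on chromosome 2 at 122147686 to 122153083 on the plus strand of mm10. A guide changes the sequence and need not remove the transcript, so the remaining level does not measure protein.

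Across all genes the responses of the lines ran more against each other than together. Of 13193 genes, 6033 (45.7%) had changes that differed between the lines by the interaction test at an adjusted p under 0.05, and these are called different below. LLC1 changed more upward in 2904 (22%) and more downward in 3129 (23.7%), with 447 and 636 of them differing by at least 1 log2 unit. Their median absolute difference was 0.52 on the log2 scale.

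A gene is said to have risen or fallen in a line where that line's own contrast passed the same threshold. In LLC1 2585 genes rose (19.6%) and 2952 fell (22.4%), and in Hepa1-6 2560 rose (19.4%) and 2572 fell (19.5%). Passing in both lines were 2799 genes, of which 1856 (66.3%) moved in opposite directions. Of these, 860 (6.52% of genes tested) rose in LLC1 and fell in Hepa1-6 and 996 (7.55%) did the reverse. The same direction was taken by 943 genes, with 390 rising in both (2.96%) and 553 falling in both (4.19%). Among these, 127 and 207 still differed in size between the lines. Across genes, which are not independent replicates, the 2 changes had a Pearson r of -0.17 and a Spearman rho of -0.18. The median change over all genes was 0.003 in LLC1 and -0.009 in Hepa1-6, and the median difference 0.007, which are the values a list's medians are read against. Counts within a list are likewise read against the shares of all genes tested.

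**Figure D1:**
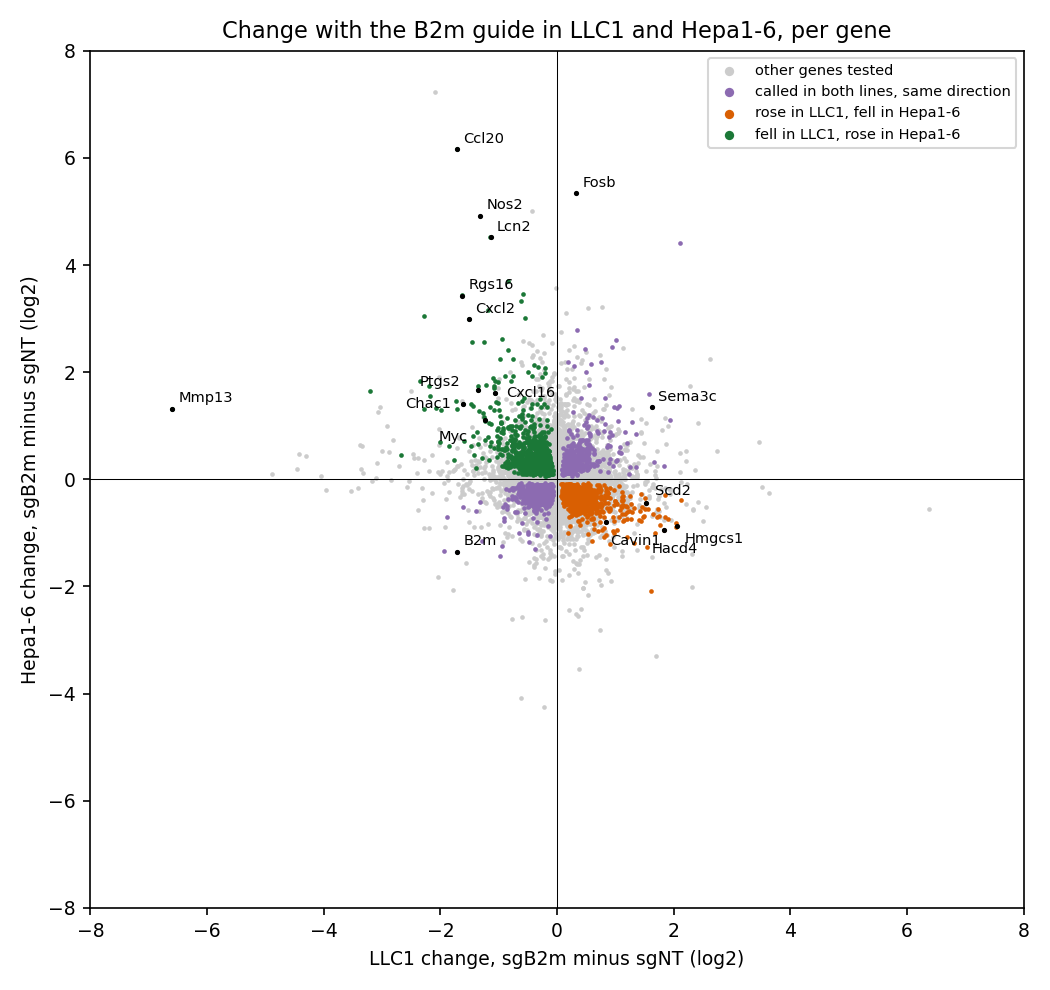
Change with the B2m guide (sgB2m minus sgNT, log2) in LLC1 on the x axis and in Hepa1-6 on the y axis, 1 point per gene tested. Orange points (860) rose in LLC1 and fell in Hepa1-6, green points (996) did the reverse, purple points (943) were called in both lines in 1 direction, and grey points are the rest. Named genes are marked in black.

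Cholesterol synthesis had the highest share of opposed members among the lists. Of 25 genes in the list 24 were tested, all 24 changes differed upward in LLC1, and 22 rose in LLC1 and fell in Hepa1-6. The median change was 1.43 in LLC1 and -0.54 in Hepa1-6. Srebf2, which encodes the SREBP factor that drives these genes, rose by 0.60 in LLC1 and had a change of -0.03 in Hepa1-6 that did not pass. The remaining member was not tested because it missed the level limit.

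Hmgcs1 makes HMG-CoA, an early intermediate of the pathway. It held 3482, 3552 and 3386 normalised counts in LLC1 sgNT and 14773, 14488 and 13778 in LLC1 sgB2m, against 17512, 17796 and 17800 in Hepa1-6 sgNT and 9889, 9346 and 9556 in Hepa1-6 sgB2m. No edited library overlapped a control library, and LLC1 started well below Hepa1-6 and ended above the edited Hepa1-6 libraries, although levels set across the 2 tables were normalised separately. Its change was 2.05 ± 0.031 in LLC1 and -0.88 ± 0.031 in Hepa1-6, a difference of 2.93 ± 0.044 (adjusted p = 2.4e-17).

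The steps on either side behaved alike. Acat2, which joins 2 acetyl-CoA units ahead of Hmgcs1, differed by 2.56 ± 0.063. Idi1, which isomerises the isoprenoid unit, differed by 2.65 ± 0.046, rising by 1.9 in LLC1 against -0.75 in Hepa1-6. Lss and Cyp51, which close and demethylate the sterol ring, each differed by 2.29, with SEs of 0.045 and 0.05. Insig1, which holds SREBP in the endoplasmic reticulum and is itself an SREBP target, differed by 2.18 ± 0.064. Sqle, the squalene epoxidase, rose by 1.11 and fell by 0.52 in the respective lines.

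Stretches of 100 bases upstream of the RefSeq start (GRCm38.p6, the assembly of mm10) are shown for Hmgcs1 and Acat2, the members whose 300-base promoter window holds the sterol regulatory element core CACCCCAC (either strand, in capitals). The Hmgcs1 stretch is chr13:119690169-119690268 on the plus strand and the Acat2 stretch chr17:12960853-12960952 on the minus strand.
Hmgcs1: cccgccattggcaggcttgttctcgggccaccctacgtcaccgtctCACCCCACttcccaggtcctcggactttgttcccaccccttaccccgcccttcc
Acat2: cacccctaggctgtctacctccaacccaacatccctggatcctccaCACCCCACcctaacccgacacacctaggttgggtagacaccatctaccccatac
Of 17 cholesterol genes with a promoter in the table, 2 (11.8%) held this core, against 2.77% of all 27025 promoters and 2.84% of those of tested genes. The short sequence CCAAT, which NF-Y binds, was in 15 of the 17 (88.2%) against 37.9% of all promoters and 39.7% of those of tested genes. These are matches of letters in a window from 250 bases before to 50 after the start, and no match says only that the letters are not there.

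**Figure D2:**
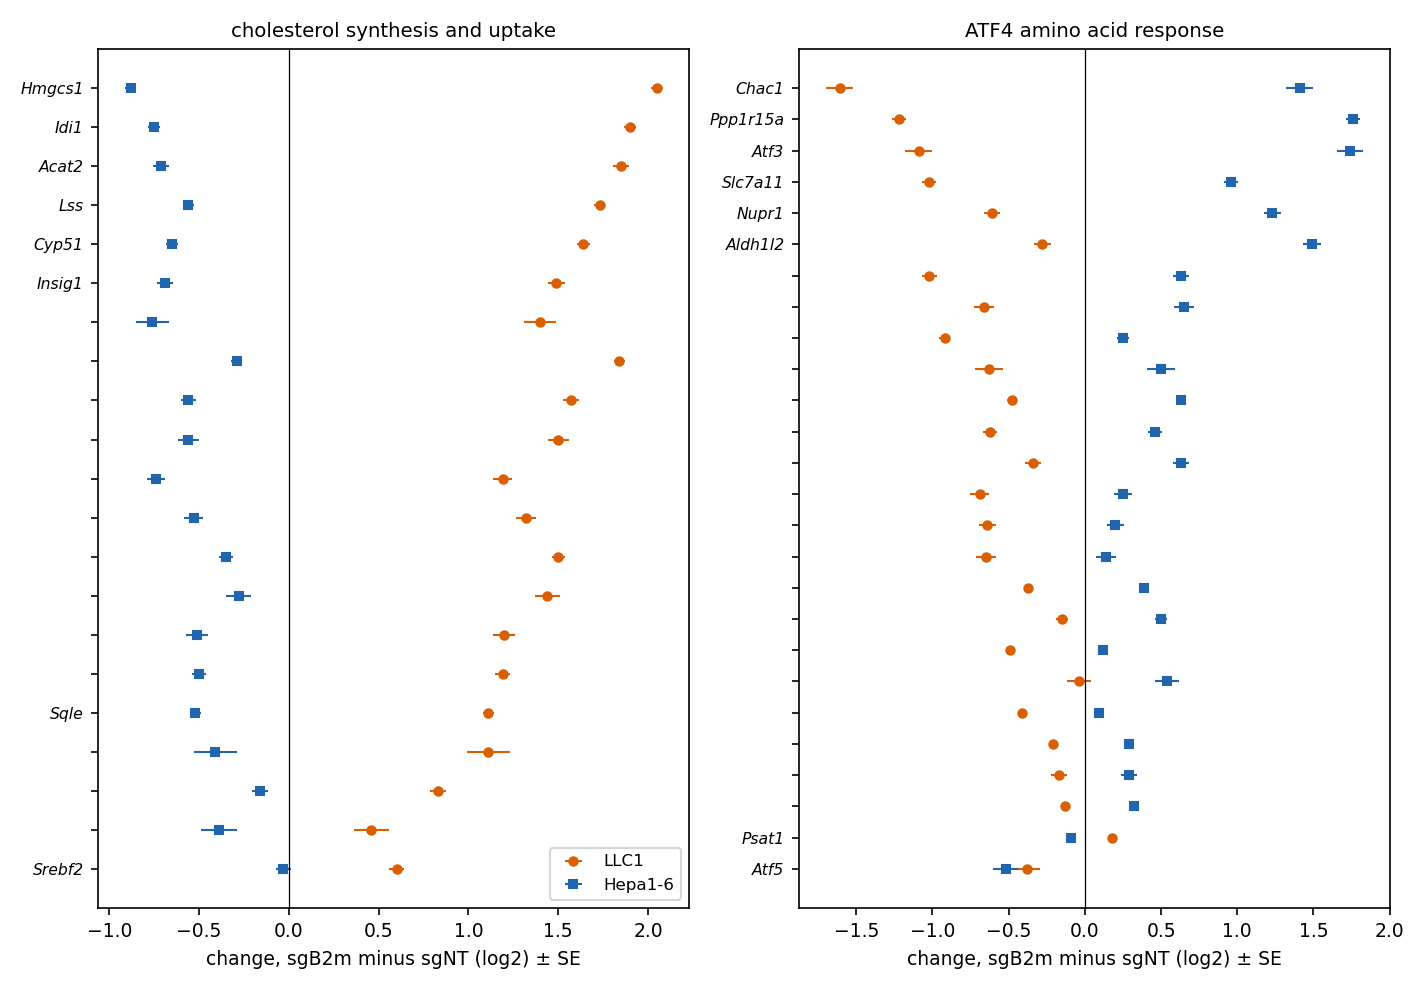
Change between guides (log2, sgB2m minus sgNT; bars are SE) of 21 of the 24 tested members of the cholesterol list (left) and of all 26 of the ATF4 list (right), ordered by the size of the difference, with the genes named in the text labelled. Circles are LLC1 and squares Hepa1-6. In the left panel LLC1 lies to the right of 0 for all 21 genes shown, and in the right panel to the left for all but Psat1.

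Fatty acid synthesis and desaturation moved with the sterol genes. Of 17 tested members (18 in the list) 15 differed upward in LLC1 and none downward, and 10 rose in LLC1 and fell in Hepa1-6. The median change was 0.75 in LLC1 and -0.21 in Hepa1-6. Scd2, a desaturase that puts the double bond into stearate, held 25884, 25299 and 25249 counts in LLC1 sgNT and 74807, 73527 and 71921 in LLC1 sgB2m. In Hepa1-6 it held 84694, 85982 and 87944 and then 62824, 62633 and 64109. The guide groups were apart in both lines, and the difference was 1.97 ± 0.03 (adjusted p = 2.4e-17). Fasn, the synthase that builds palmitate, rose by 0.95 ± 0.029 in LLC1 and fell by 0.7 in Hepa1-6, where its controls held 26558, 26579 and 26712 and its edited libraries 16473, 15967 and 16822. Acly, which supplies cytosolic acetyl-CoA, differed by 1.45 ± 0.047. Elovl6, an elongase, differed by 1.62 ± 0.068 and Fads2, a desaturase of polyunsaturated fatty acids, by 1.59 ± 0.052.

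Scd1 differed by 1.19 ± 0.035. Its near copy Scd4 had the largest upward difference of the desaturases, 4.31 ± 1.1, but its libraries scattered widely, with 183.4, 38.4 and 199.9 counts in LLC1 sgB2m against 23.4, 5.93 and 70.4 in sgNT. In Hepa1-6 sgB2m, 173.3 stood beside 26.3 and 28.2. These groups overlapped in LLC1, and the Hepa1-6 change of -2.0 did not pass (adjusted p = 0.052). The LLC1 change lost its call without LLC1 sgB2m replicate 1 (adjusted p = 0.0889) or 3 (0.0954), or without LLC1 sgNT replicate 1 (0.0504) or 2 (0.146). The Hepa1-6 change gained one without LLC1 sgB2m replicate 2 (0.033) or 3 (0.049), LLC1 sgNT replicate 2 (0.0256) or 3 (0.0294), or Hepa1-6 sgB2m replicate 1 (0.00677). The Scd genes are similar in sequence, so how their reads were divided is uncertain.

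Genes of oxidative phosphorylation also leaned upward in LLC1 and downward in Hepa1-6, with smaller changes. Among 75 tested nuclear genes of the respiratory chain 50 differed upward in LLC1 and 4 downward, and 30 rose in LLC1 and fell in Hepa1-6. Their median change was 0.17 in LLC1 and -0.18 in Hepa1-6. Uqcrh, the hinge subunit of complex III, held 2022, 1945 and 1902 counts in LLC1 sgNT and 3063, 2992 and 2911 in sgB2m, and in Hepa1-6 2214, 2117 and 2230 and then 1531, 1520 and 1454. No guide groups overlapped, and the difference was 1.15 ± 0.061. Atp5k, a subunit of ATP synthase, differed by 1.13 ± 0.16.

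On the mitochondrial genome 31 genes were tested, with median changes of 0.08 in LLC1 and -0.28 in Hepa1-6. The mitochondrial list holds 15 genes, and the others are not described. All 15 listed genes fell in Hepa1-6, while 5 rose and 3 fell in LLC1. The difference was called upward for 14 of them. mt-Nd1, a complex I subunit, went from 165692, 171643 and 172958 counts to 92010, 91696 and 95697 in Hepa1-6 and from 52336, 50897 and 50865 to 61668, 61027 and 57781 in LLC1. Its difference was 1.1 ± 0.037. The lower mitochondrial share of reads in edited Hepa1-6 libraries is the sum over mitochondrial genes, so it is not a separate observation. Its part in the other lists was not tested.

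Mitotic genes split the same way. Of 26 tested, 19 differed upward in LLC1 and 2 downward, and 9 rose in LLC1 and fell in Hepa1-6, with none moving the same way in both. The medians were 0.19 in LLC1 and -0.14 in Hepa1-6. Mki67, the proliferation antigen Ki-67, held 10854, 10592 and 10422 counts in LLC1 sgNT and 18289, 18122 and 17850 in sgB2m, against 16879, 16170 and 16826 and then 12092, 11787 and 11725 in Hepa1-6. Edited libraries were all higher in LLC1 and all lower in Hepa1-6, a difference of 1.25 ± 0.036. Plk1, a kinase needed for spindle assembly, differed by 1.08 ± 0.074 and Cenpf, a kinetochore protein, by 0.89 ± 0.053. CCAAT was in 18 of 22 mitotic promoters (81.8%), against 39.7% of those of tested genes. In such bulk libraries fewer cells in mitosis and less RNA per cell cannot be told apart.

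Antioxidant genes driven by NRF2 were less uniform. Of 25 tested, 15 differed upward in LLC1 and 4 downward, and 8 rose in LLC1 and fell in Hepa1-6 while 3 did the reverse. Prdx1, a peroxidase for hydrogen peroxide, held 6842, 6788 and 6562 counts in LLC1 sgNT and 8318, 8790 and 8501 in sgB2m, and in Hepa1-6 30309, 31073 and 30554 and then 20820, 21482 and 20789. The difference was 0.89 ± 0.038 with no overlap of guide groups. Gstm1, a glutathione transferase, differed by 1.01 ± 0.064. Hmox1, which breaks down heme, went the other way, with a change of -0.51 ± 0.057 in LLC1 and 0.23 ± 0.057 in Hepa1-6.

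Hypoxia and glycolysis genes were divided. Of 33 tested, 17 differed upward in LLC1 and 6 downward, against 22% and 23.7% of all genes. Among them 7 rose in LLC1 and fell in Hepa1-6, 4 did the reverse and 5 rose in both. Over all genes these shares were 6.52%, 7.55% and 2.96%. Bnip3, a mitophagy receptor, rose by 0.69 in LLC1 and fell by 0.23 in Hepa1-6, while Hk2, a hexokinase, fell by 0.59 in LLC1 and rose by 0.11 in Hepa1-6. Ndrg1, a hypoxia-responsive gene, had changes of -0.26 ± 0.044 and 0.56 ± 0.044. Vegfa, the endothelial growth factor, which the cytokine list holds, had 3881, 4091 and 4141 counts in LLC1 sgNT and 1912, 1774 and 1690 in sgB2m. In Hepa1-6 it had 5255, 5338 and 5309 and then 6754, 6870 and 6890. The change was -1.17 ± 0.041 in LLC1 and 0.37 ± 0.041 in Hepa1-6, with the guide groups apart in both.

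Most type I interferon response genes rose in LLC1. Of 37 tested (48 in the list) 21 differed upward in LLC1 and 3 downward. In LLC1 22 rose and 4 fell, and in Hepa1-6 3 rose and 9 fell, so that 6 rose in LLC1 and fell in Hepa1-6 and 2 did the reverse. Medians were 0.32 and -0.11. Stat2, which carries the interferon signal to DNA, held 460.2, 462.4 and 395.2 counts in LLC1 sgNT and 1082, 977.2 and 1066 in sgB2m, and in Hepa1-6 2564, 2839 and 2637 and then 2294, 2110 and 2095. It rose by 1.25 ± 0.07 in LLC1 and fell by 0.31 in Hepa1-6, without overlap, a difference of 1.55 ± 0.098.

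Several of the effector genes started near the limit of detection in LLC1. Ifit1, which binds viral RNA caps, had 6.1, 12.8 and 33.6 counts in LLC1 sgNT and 41.6, 63.0 and 45.0 in sgB2m, and in Hepa1-6 464.7, 483.0 and 471.2 and then 411.0, 374.9 and 317.3. Its change of 1.73 ± 0.38 passed in LLC1. That of -0.37 ± 0.38 in Hepa1-6 did not (adjusted p = 0.484), although the guide groups there did not overlap. The Hepa1-6 SE also draws on the LLC1 libraries, which held few counts. The difference was 2.1 ± 0.54 (adjusted p = 0.00412). Ifit3, a partner of Ifit1, had 36.6, 51.4 and 27.3 and then 186.4, 163.4 and 143.5 counts in LLC1, a change of 2.11 ± 0.25, and in Hepa1-6 a change of 0.14 ± 0.25 with overlapping libraries. Irf7, the factor that amplifies interferon production, had changes of 1.17 ± 0.22 and -0.23 ± 0.22, the second of which did not pass (adjusted p = 0.441). With limma-voom on the recovered reads the Hepa1-6 changes of Ifit1 and Irf7 passed (adjusted p = 0.0259 and 0.0196).

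Upstream stretches of Ifit1 (chr19:34640759-34640858) and Ifit3 (chr19:34583381-34583480), both on the plus strand of GRCm38.p6, are shown with matches to the core of the interferon-stimulated response element, TTCNNTTTC, in capitals (overlapping matches run together).
Ifit1: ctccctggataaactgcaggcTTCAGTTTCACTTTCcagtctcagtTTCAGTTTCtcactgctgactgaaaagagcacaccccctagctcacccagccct
Ifit3: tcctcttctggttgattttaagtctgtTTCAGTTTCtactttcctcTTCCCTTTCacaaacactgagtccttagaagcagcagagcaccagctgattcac
The core was in 15 of 26 matched promoters of the list (57.7%), in 8.57% of all promoters and in 7.11% of those of tested genes. Ifit3 has a near-identical neighbour, Ifit3b, whose reads may not be separable from it.

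The ATF4 amino acid response came next in uniformity and ran the other way. Of 26 tested members (29 in the list) 24 differed downward in LLC1 and 1 upward, and 22 fell in LLC1 and rose in Hepa1-6. The medians were -0.55 in LLC1 and 0.48 in Hepa1-6. Psat1, a serine synthesis enzyme, rose in LLC1 and fell in Hepa1-6, and Atf5, an ATF4-related factor, fell in both.

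Chac1 degrades glutathione and is among the most responsive ATF4 targets. It held 983.5, 1051 and 963.7 counts in LLC1 sgNT and 327.1, 299.2 and 352.0 in sgB2m, against 518.4, 485.2 and 604.0 in Hepa1-6 sgNT and 1358, 1504 and 1393 in sgB2m. The edited libraries were the low ones in LLC1 and the high ones in Hepa1-6. The changes were -1.61 ± 0.088 and 1.41 ± 0.088, a difference of -3.02 ± 0.12 (adjusted p = 8.55e-12). Slc7a11, the cystine importer, held 4138, 3973 and 3724 and then 1907, 1983 and 1955 counts in LLC1, and 10365, 9179 and 9758 and then 19282, 18161 and 19669 in Hepa1-6. It went down by about the amount by which it went up in the other line, -1.02 ± 0.046 against 0.96 ± 0.046, and no guide groups overlapped.

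Ppp1r15a, which restores translation after stress, differed by -2.98 ± 0.068, from changes of -1.22 and 1.76. Atf3, a stress-induced repressor, differed by -2.83 ± 0.12, and Nupr1, a stress-induced chromatin protein, by -1.84 ± 0.076. Aldh1l2, a mitochondrial folate enzyme, fell by 0.28 in LLC1 and rose by 1.49 ± 0.057 in Hepa1-6.

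The promoter stretches of 4 of these genes carry the core of the ATF4 and C/EBP composite element, TGATGNAA or its reverse complement, in capitals. They are Chac1 (chr2:119351003-119351102, plus strand), Atf3 (chr1:191183390-191183489, minus strand), Slc7a11 (chr3:50443614-50443713, minus strand) and Nupr1 (chr7:126625527-126625626, minus strand), all from GRCm38.p6.
Chac1: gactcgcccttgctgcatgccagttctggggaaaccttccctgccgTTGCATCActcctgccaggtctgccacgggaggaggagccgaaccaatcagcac
Atf3: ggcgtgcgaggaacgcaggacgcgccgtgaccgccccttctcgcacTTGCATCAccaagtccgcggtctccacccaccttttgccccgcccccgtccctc
Slc7a11: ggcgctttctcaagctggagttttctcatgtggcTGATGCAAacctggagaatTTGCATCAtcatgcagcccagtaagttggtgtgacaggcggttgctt
Nupr1: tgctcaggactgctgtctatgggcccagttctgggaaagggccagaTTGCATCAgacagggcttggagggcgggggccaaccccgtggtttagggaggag
Of 23 list members with a promoter 7 (30.4%) held the core, against 4.06% of all promoters and 2.02% of those of tested genes. Slc7a11 holds it on each strand within the stretch shown.

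Endoplasmic reticulum chaperones and the unfolded protein response did not follow ATF4 as a group. Of 25 tested, 6 differed upward in LLC1 and 9 downward, against 22% and 23.7% of all genes. Falling in both lines were 6, or 2 with quantile normalisation, against 4.19% of all genes. The sensor Ern1 and the chaperone Hspa5, however, moved like the ATF4 genes. Hspa5 (BiP) had 52060, 54640 and 52409 counts in LLC1 sgNT and 30080, 30651 and 31346 in sgB2m, and in Hepa1-6 36244, 36533 and 36471 and then 44877, 43426 and 44332, a difference of -1.07 ± 0.032 without overlap. Ern1 differed by -1.37 ± 0.071 and Xbp1, the factor it splices, by -0.89 ± 0.055. Of 20 aminoacyl-tRNA synthetases, which charge tRNAs and are in part ATF4 targets, 14 differed downward in LLC1 and 1 upward. In LLC1 14 fell, while in Hepa1-6 9 rose and 5 fell. Wars, the tryptophan enzyme, fell by 0.83 in LLC1 and had a change of -0.02 ± 0.043 in Hepa1-6.

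Most immediate early and AP-1 genes fell in LLC1 and rose in Hepa1-6. Of 22 tested, 20 differed downward in LLC1 and none upward, and 12 fell in LLC1 and rose in Hepa1-6. The medians were -0.53 and 0.97. Egr1, a zinc finger factor induced by ERK signalling, held 2207, 2228 and 2069 counts in LLC1 sgNT and 926.8, 985.1 and 836.1 in sgB2m, against 1441, 1548 and 1491 and then 8839, 8812 and 8665 in Hepa1-6. Edited libraries were lowest in LLC1 and highest in Hepa1-6, and the difference was -3.8 ± 0.076 (adjusted p = 9.46e-16). Myc, the growth regulator, held 23822, 24124 and 22289 and then 10291, 9351 and 10025 counts in LLC1, and 4633, 4777 and 4733 and then 9901, 10150 and 10211 in Hepa1-6. The 2 changes were -1.24 ± 0.036 and 1.1 ± 0.036. Fosl1, an AP-1 subunit, differed by -2.37 ± 0.2 and Ier3, a survival gene, by -3.0 ± 0.11.

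Fosb did not oppose. It had 89.1, 51.4 and 94.7 counts in Hepa1-6 sgNT and 3140, 3101 and 3099 in sgB2m, a rise of 5.34 ± 0.15, and its change in LLC1 was 0.33 ± 0.15 (adjusted p = 0.0976), which passed without Hepa1-6 sgNT replicate 2 (adjusted p = 0.000576) and with limma-voom on the recovered reads (0.000638). The AP-1 site TGANTCA was in none of the 17 matched promoters of the list. It was in 7.93% of all promoters and 4.69% of those of tested genes, and 17 promoters are too few to tell none from such a share.

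The upstream and downstream parts of growth factor signalling moved with the AP-1 list. Of 10 EGF receptor ligands and receptors 8 differed downward in LLC1 and 1 upward, with 4 falling in LLC1 and rising in Hepa1-6. Hbegf, a ligand shed from the surface, held 939.8, 892.1 and 829.2 and then 457.0, 426.1 and 432.4 counts in LLC1, and 1790, 1822 and 1751 and then 4499, 4902 and 5011 in Hepa1-6. Its difference was -2.44 ± 0.083, and that of the ligand Areg -2.61 ± 0.18, both with guide groups apart. The receptor Egfr differed by -1.05 ± 0.074. Among 13 feedback genes of the ERK pathway 8 differed downward and 2 upward, and 5 fell in LLC1 and rose in Hepa1-6. Phlda1, an ERK-induced protein, differed by -2.15 ± 0.083, and Dusp5, a nuclear ERK phosphatase, by -1.45 ± 0.15.

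Targets of YAP and TEAD followed. Of 16 tested 13 differed downward in LLC1 and none upward, and 9 fell in LLC1 and rose in Hepa1-6. Ankrd1, a transcriptional cofactor used as a YAP readout, held 2967, 3088 and 3284 and then 2353, 2410 and 2354 counts in LLC1, and 3467, 3480 and 3548 and then 15007, 15148 and 15725 in Hepa1-6. The opposition was uneven, -0.39 ± 0.037 against 2.13 ± 0.037, with no overlap. Cyr61, a matrix-associated ligand, differed by -2.08 ± 0.059. In TGF-beta and BMP signalling 8 of 17 differed downward and 2 upward, with 5 falling in LLC1 and rising in Hepa1-6. Skil, a SMAD corepressor that TGF-beta induces, differed by -1.53 ± 0.091.

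Most tested chemokines fell in LLC1 and rose in Hepa1-6. Of 13 tested (32 in the list) 8 differed downward in LLC1 and 1 upward, and 7 fell in LLC1 and rose in Hepa1-6. The medians were -0.31 and 1.22. Ccl20, which draws CCR6-bearing lymphocytes and dendritic cells, held 282.4, 258.9 and 265.9 counts in LLC1 sgNT and 85.2, 71.8 and 86.1 in sgB2m. In Hepa1-6 it held 51.8, 63.4 and 81.8 in sgNT and 4913, 4447 and 4722 in sgB2m. In Hepa1-6 the edited libraries stood far above the controls, and the guide groups did not overlap in either line. The changes were -1.72 ± 0.14 and 6.16 ± 0.14, a difference of -7.88 ± 0.2 (adjusted p = 1.86e-14). The gene (ENSMUSG00000026166) is on chromosome 1 at 83116766 to 83119167.

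The neutrophil chemokines Cxcl1, Cxcl2 and Cxcl5 and the monocyte chemokine Ccl2 moved alike. Cxcl2 held 222.5, 208.5 and 244.9 and then 65.4, 75.8 and 97.6 counts in LLC1, and 153.7, 120.2 and 115.0 and then 943.5, 1092 and 1050 in Hepa1-6, a difference of -4.49 ± 0.22. Ccl2 held 9639, 9395 and 9738 and then 5237, 5477 and 5292 counts in LLC1, and in Hepa1-6 42.7, 29.5 and 37.2 and then 452.2, 466.1 and 530.7. Its difference was -4.55 ± 0.14. Cxcl1 differed by -4.05 ± 0.14 and Cxcl5 by -3.57 ± 0.059, and for all 4 the guide groups were apart in both lines.

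Cxcl16, the membrane-anchored ligand of CXCR6 that the title of the series names, held 96.5, 138.3 and 173.4 counts in LLC1 sgNT and 65.4, 59.0 and 65.1 in LLC1 sgB2m. In Hepa1-6 it held 884.9, 705.9 and 852.5 in sgNT and 2540, 2428 and 2483 in sgB2m. It thus fell in LLC1, by 1.06 on the log2 scale (adjusted p = 4.52e-05), and rose in Hepa1-6, by 1.61 ± 0.16, without overlap in either. The difference was -2.67 ± 0.23 (adjusted p = 5.99e-08). Cxcl16 (ENSMUSG00000018920) lies on chromosome 11 at 70453983 to 70459984 on the minus strand.

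NF-kB subunits and targets differed mainly through their rise in Hepa1-6. Of 21 tested 19 differed downward in LLC1 and none upward. In Hepa1-6 19 rose and none fell, in LLC1 2 rose and 9 fell, and 7 fell in LLC1 and rose in Hepa1-6. The medians were -0.19 and 1.24. Tnfaip3 (A20), which switches NF-kB signalling off, had 375.6, 442.6 and 437.2 and then 2457, 2216 and 2674 counts in Hepa1-6, a rise of 2.55 ± 0.098. In LLC1 it had 263.1, 261.8 and 270.1 and then 230.0, 248.0 and 275.5, overlapping groups with a change of -0.08 ± 0.098 (adjusted p = 0.545). Relb, an NF-kB subunit, opposed, at -0.43 ± 0.11 in LLC1 and 1.93 ± 0.11 in Hepa1-6. Ptgs2, the inducible cyclooxygenase that makes prostaglandins, held 6034, 6361 and 6248 and then 2401, 2443 and 2423 counts in LLC1, and 81.8, 50.3 and 69.6 and then 209.2, 204.7 and 223.6 in Hepa1-6, a difference of -3.03 ± 0.17.

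Windows of 2 genes that differ strongly are shown with the NF-kB site GGGNNTTCC, or its reverse complement, in capitals. They are Ccl20 (chr1:83116640-83116739, plus strand) and Tnfaip3 (chr10:19015411-19015510, minus strand), from GRCm38.p6.
Ccl20: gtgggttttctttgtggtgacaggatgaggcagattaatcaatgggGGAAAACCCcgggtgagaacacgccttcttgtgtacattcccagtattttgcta
Tnfaip3: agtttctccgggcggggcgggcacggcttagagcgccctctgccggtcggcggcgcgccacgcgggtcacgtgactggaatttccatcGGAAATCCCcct
The site was in 6 of 17 promoters of the NF-kB list (35.3%) and 4 of 10 chemokine promoters (40%). It was in 5.72% of all promoters and 7.57% of those of tested genes.

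Cytokine and colony-stimulating factor genes mostly took the same course. Of 12 cytokines and colony-stimulating factors 8 differed downward in LLC1 and none upward, and 6 fell in LLC1 and rose in Hepa1-6. Csf1, the macrophage growth factor, held 18455, 18712 and 17821 and then 11066, 10623 and 10594 counts in LLC1, and 1616, 1560 and 1678 and then 3242, 3239 and 3241 in Hepa1-6. Edited libraries were lower in LLC1 and higher in Hepa1-6 without overlap, by -0.77 ± 0.033 and 1.0 ± 0.033. Spp1 (osteopontin), a matrix phosphoprotein, differed by -2.5 ± 0.056.

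Lcn2, which binds bacterial siderophores, held 3131, 3109 and 3080 and then 1361, 1418 and 1442 counts in LLC1, and 152.8, 119.1 and 125.5 and then 3166, 3019 and 2965 in Hepa1-6. The guide groups did not overlap in either line. Its difference was -5.67 ± 0.11. Lcn2 did not stand for its list, the acute-phase genes and complement. Of 14 tested members 7 rose and 1 fell in LLC1, while 9 rose and 0 fell in Hepa1-6. In that list 1 fell in LLC1 and rose in Hepa1-6, 3 rose in both, 8 differed downward in LLC1 and 4 upward. Rgs16, which shortens G protein signals, differed by -5.06 ± 0.16, with 271.3, 322.1 and 292.2 and then 101.1, 94.5 and 88.0 counts in LLC1 and 308.3, 229.5 and 263.1 and then 2915, 2850 and 2848 in Hepa1-6. The groups were apart in both lines.

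In 3 further genes with large differences the call in 1 line changed with the libraries or settings used. Nos2, the inducible nitric oxide synthase, had 5.46, 4.37 and 0.0 and then 95.1, 94.2 and 103.9 counts in Hepa1-6, a rise of 4.92 ± 0.52, and a change of -1.32 ± 0.52 in LLC1 (adjusted p = 0.0533). The LLC1 change passed without LLC1 sgB2m replicate 3 (adjusted p = 0.0438) or Hepa1-6 sgNT replicate 1 (0.0321), 2 (0.0424) or 3 (0.00133), and also with a pseudocount of 8 (0.00116), a stricter filter (0.0384), robust variance (0.0448) and limma-voom on the recovered reads (0.0104). The Nos2 difference was -6.23 ± 0.74. Saa3, an acute-phase protein, rose by 5.0 ± 0.45 in Hepa1-6, from 4.55, 0.0 and 5.67 counts to 113.1, 108.4 and 97.1. Its change of -0.43 ± 0.45 in LLC1 did not pass (adjusted p = 0.483). It did without Hepa1-6 sgNT replicate 2 (0.00583), with a pseudocount of 8 (0.0377) and with limma-voom on the recovered reads (1.66e-05). The Saa3 difference was -5.44 ± 0.64. For Nos2 and Saa3 the spread behind the LLC1 test also draws on the Hepa1-6 controls, which held few counts. Mmp13, a collagenase, had 147.3, 168.9 and 173.4 counts in LLC1 sgNT and 0.0, 0.0 and 3.83 in sgB2m, 4 reads in all, and in Hepa1-6 41.8, 33.9 and 56.7 and then 102.5, 107.4 and 118.6. The Mmp13 difference of -7.92 ± 0.66 depends on the pseudocount of 1. Its Hepa1-6 rise of 1.32 ± 0.47 lost its call without Hepa1-6 sgB2m replicate 1 (0.0615), 2 (0.0684) or 3 (0.0827) or sgNT replicate 1 (0.0744) or 2 (0.106).

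**Figure D3:**
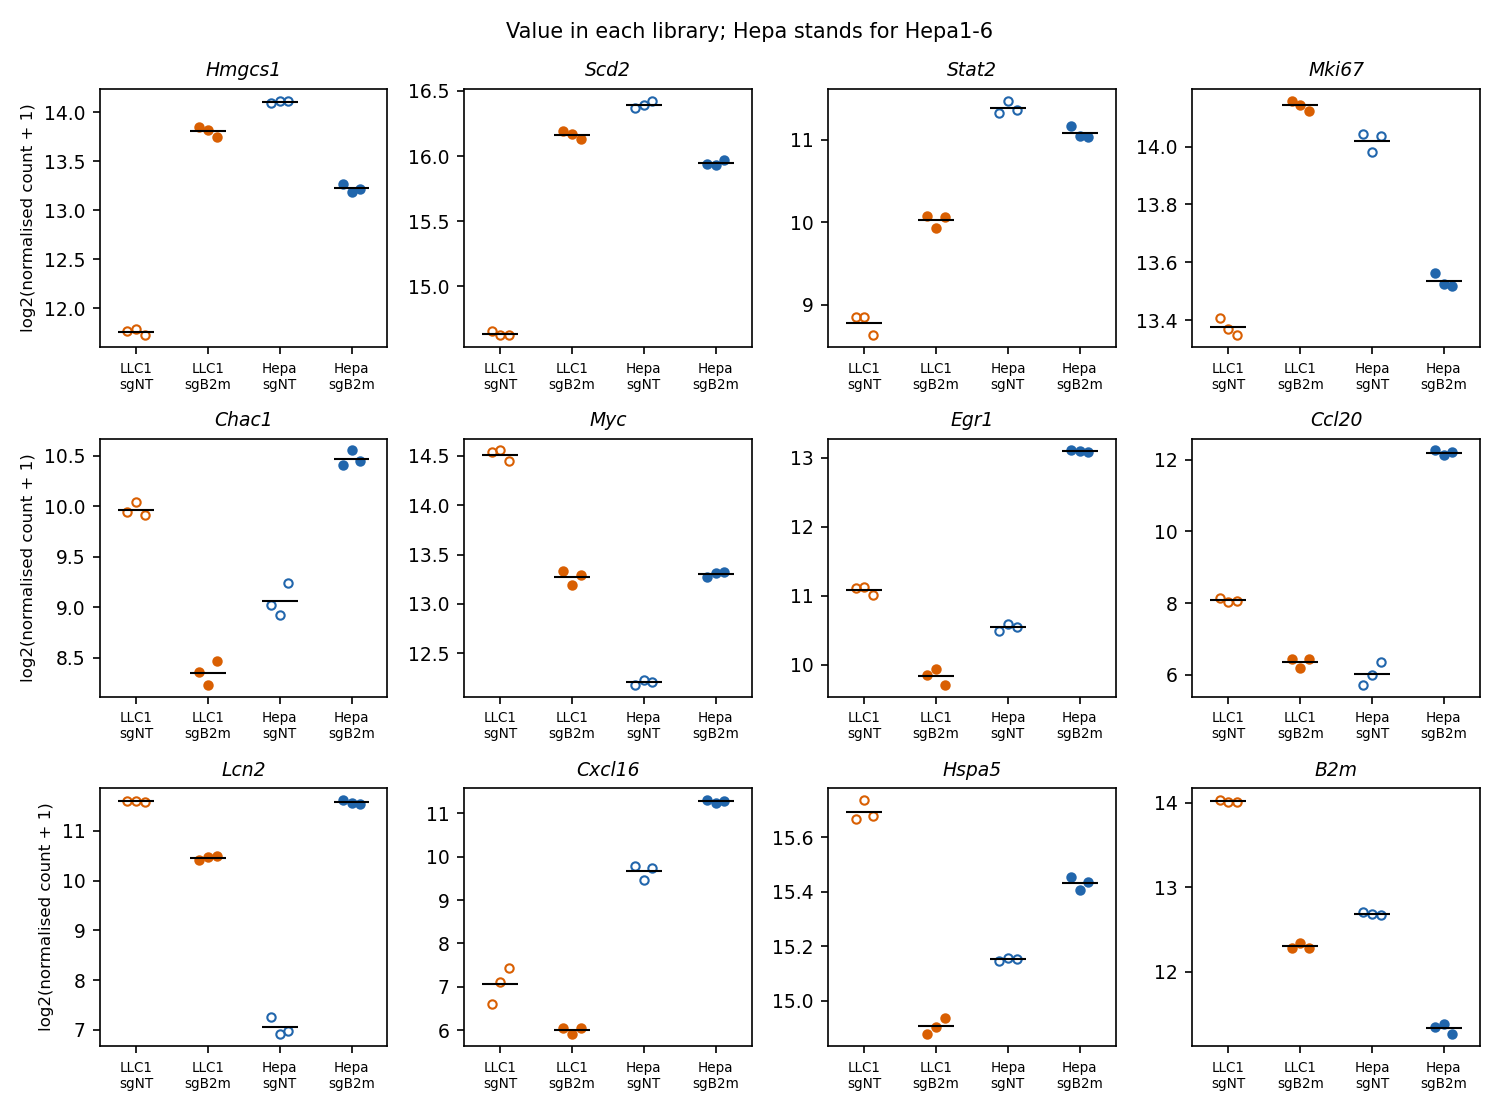
Deposited log2(normalised count + 1) of 12 genes in each library. Open symbols are sgNT, filled symbols sgB2m, orange LLC1 and blue Hepa1-6, and the bar is the mean of 3 libraries. Axes differ between panels and do not start at 0. Hmgcs1, Scd2, Stat2 and Mki67 rise in LLC1 and fall in Hepa1-6, Chac1 to Hspa5 do the reverse, and B2m falls in both.

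The list of interferon-gamma GTPases and regulators, which also holds the receptor, kinase and factors of the pathway, split from the type I list. Of 19 tested 11 differed downward in LLC1 and 2 upward, but 7 downward without LLC1 sgNT replicate 1 or 2 or with the stricter filter. In Hepa1-6 10 rose and 1 fell, in LLC1 2 rose and 5 fell, and 4 fell in LLC1 and rose in Hepa1-6. The medians were -0.12 and 0.53, against 0.32 and -0.11 for the type I list, so each list's median is positive in a different line. Gvin1, a very large interferon-inducible GTPase, held 24.4, 17.8 and 27.3 and then 3.97, 3.94 and 3.83 counts in LLC1, and 1001, 1039 and 969.1 and then 2521, 2295 and 2702 in Hepa1-6, a difference of -3.6 ± 0.24 without overlap. The GTPases are families of similar genes, and reads may be divided between copies.

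Antigen display genes did not move as a block. Of 12 MHC class I heavy chain and class I-like genes tested 3 differed upward and 2 downward, and of 12 peptide loading genes 1 and 4, counts to be read against the 22% and 23.7% of all genes. H2-D1, a classical heavy chain, held 11630, 11684 and 11836 and then 8776, 8720 and 9367 counts in LLC1, and 8762, 8727 and 8509 and then 11924, 11575 and 11863 in Hepa1-6. The guide groups were apart, with changes of -0.39 ± 0.029 and 0.44 ± 0.029 and a difference of -0.83 ± 0.041 (adjusted p = 7.92e-11). Its sequence is close to that of other heavy chains, so its reads are uncertain. Tap2, a subunit of the peptide transporter, rose by 0.64 ± 0.14 in Hepa1-6 and had a change of -0.2 ± 0.14 in LLC1 (adjusted p = 0.263, or 0.0239 with limma-voom on the recovered reads).

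Ligands of lymphocyte receptors showed both directions. Cd274 (PD-L1) held 275.3, 303.3 and 346.8 and then 228.0, 199.8 and 180.8 counts in LLC1, and 171.9, 139.9 and 169.2 and then 369.8, 356.7 and 354.5 in Hepa1-6, a difference of -1.77 ± 0.19. Nt5e (CD73), which makes adenosine, differed by -1.37 ± 0.14. Lgals9, the galectin that binds TIM-3, held 631.9, 570.1 and 550.7 and then 1140, 1247 and 1085 in LLC1, and 9735, 9394 and 9097 and then 7049, 7234 and 7060 in Hepa1-6, a difference of 1.39 ± 0.078. No guide groups of Cd274 or Lgals9 overlapped. Of 5 tested NK cell ligands 3 differed downward in LLC1 and 2 upward. The nectin-family ligands Pvr and Nectin2 differed by -1.35 ± 0.08 and -1.04 ± 0.1, each falling in LLC1 and rising in Hepa1-6.

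Among 25 tested p53 targets 16 differed downward in LLC1 and 3 upward, and 6 fell in LLC1 and rose in Hepa1-6. Pmaip1 (NOXA), a death-promoting BCL-2 family member, held 143.3, 123.5 and 112.5 and then 29.7, 22.6 and 42.1 counts in LLC1, and 3262, 2952 and 3209 and then 4996, 5012 and 5259 in Hepa1-6, a difference of -2.71 ± 0.22 without overlap. Plk2, a stress-induced kinase, differed by -1.73 ± 0.054. Zmat3, an RNA-binding p53 target, differed by -1.06 ± 0.059. Aen, a p53-induced nuclease, fell by 1.15 in LLC1 while its Hepa1-6 libraries overlapped.

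Matrix genes were mixed. Of 14 tested collagens 5 differed downward and 1 upward, against 23.7% and 22% of all genes. Col8a1, a short-chain collagen, fell by 0.26 in LLC1 and rose by 1.91 ± 0.045 in Hepa1-6. Sparc, a collagen-binding glycoprotein, held 2908, 3127 and 3001 and then 5420, 5575 and 5570 counts in LLC1, and 8022, 7668 and 8021 and then 6588, 6574 and 6619 in Hepa1-6. It went the opposite way, differing by 1.14 ± 0.046.

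Genes outside the lists with the strongest opposition, ranked by the smaller of the 2 changes, ran in both directions. This ranking left out genes whose guide groups overlapped in either line. Rising in LLC1 and falling in Hepa1-6 were Mxd3, a MYC antagonist (difference 2.29 ± 0.34), Hacd4, a dehydratase of fatty acid elongation (2.78 ± 0.24), Cemip, which degrades hyaluronan (2.61 ± 0.23), and Hexim1, an inhibitor of transcription elongation (1.88 ± 0.12). Ttc30b, a ciliary transport protein, differed by 1.98 ± 0.28, Dnajc12, a co-chaperone of aromatic amino acid hydroxylases, by 1.89 ± 0.21, and Abcd2, a peroxisomal fatty acid transporter, by 1.91 ± 0.15. Cavin1, which coats caveolae, held 5134, 5203 and 5295 and then 9298, 9205 and 9332 counts in LLC1, and 14190, 14254 and 14468 and then 8464, 8307 and 8080 in Hepa1-6. Its changes of 0.83 ± 0.026 and -0.79 ± 0.026 were near mirror images. Tchh, a hair follicle protein, had changes of 0.81 ± 0.26 and -0.91 ± 0.26, and the first lost its call without LLC1 sgB2m replicate 1 (adjusted p = 0.082) or 3 (0.0548) or sgNT replicate 3 (0.103). In the reverse direction, beside genes already described, were Aqp8, a water channel (-3.18 ± 0.37), Angptl6, an angiopoietin-like secreted factor (-2.81 ± 0.41), and Il13ra1, a subunit of the IL-13 receptor (-3.02 ± 0.35).

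Ribosome biogenesis had a median change below 0 in both lines, lower in LLC1. Of 39 genes 36 fell in LLC1 and 22 in Hepa1-6, 19 in both, and 29 differed downward in LLC1. The medians were -0.55 and -0.15. Nop58, part of the particles that methylate ribosomal RNA, held 17856, 18006 and 18182 and then 9906, 10059 and 10274 counts in LLC1, and 6018, 5817 and 6114 and then 6177, 6275 and 6232 in Hepa1-6. It fell by 0.84 in LLC1, and its Hepa1-6 change of 0.06 ± 0.026 did not pass. Wdr43, a factor of the small subunit, was an exception that fell by 0.95 in LLC1 and rose by 0.25 in Hepa1-6.

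DNA replication genes had median changes below 0 in both lines, although fewer members fell in both than in each line. Of 31 tested 20 fell in each line, 12 of them in both, with medians of -0.23 and -0.27. Of all genes 22.4% fell in LLC1, 19.5% in Hepa1-6 and 4.19% in both. In each direction 9 differed, against 22% of all genes upward in LLC1 and 23.7% downward. Rrm2, a subunit of the reductase that makes deoxynucleotides, held 3576, 3748 and 3748 and then 2864, 2929 and 2942 counts in LLC1, and 5993, 6085 and 5978 and then 3299, 3411 and 3636 in Hepa1-6. It fell in both without overlap, more so in Hepa1-6, by 0.34 and 0.8. Cdt1, which licenses origins, fell by 1.09 in LLC1 and had a change of 0.13 ± 0.07 in Hepa1-6 that did not pass. None of the 31 fell in LLC1 and rose in Hepa1-6, and 3 did the reverse.

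Folate and one-carbon enzymes fell in both for 8 of 18, with medians of -0.25 and -0.2. Mthfd1, a trifunctional folate enzyme, had changes of -0.22 ± 0.043 and -0.64 ± 0.043. Constitutive proteasome subunits fell in Hepa1-6 for 26 of 34, while 10 rose and 11 fell in LLC1, and 8 rose in LLC1 and fell in Hepa1-6. Psma2, a core subunit, opposed upward in LLC1 (difference 1.08 ± 0.059) and Psmd8, a lid subunit, downward (-1.06 ± 0.054). Of 80 cytosolic ribosomal protein genes 48 differed downward in LLC1 and 4 upward, by small amounts, with medians of -0.05 and 0.09. Of the 80, 20 fell in LLC1 and rose in Hepa1-6, against 7.55% of all genes, or 10 with quantile normalisation, while 1 did the reverse and 1 rose in both. Rpl3, a large subunit protein, differed by -0.69 ± 0.029. Ribosomal proteins have many processed copies in the genome, so their reads are uncertain.

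**Figure D4:**
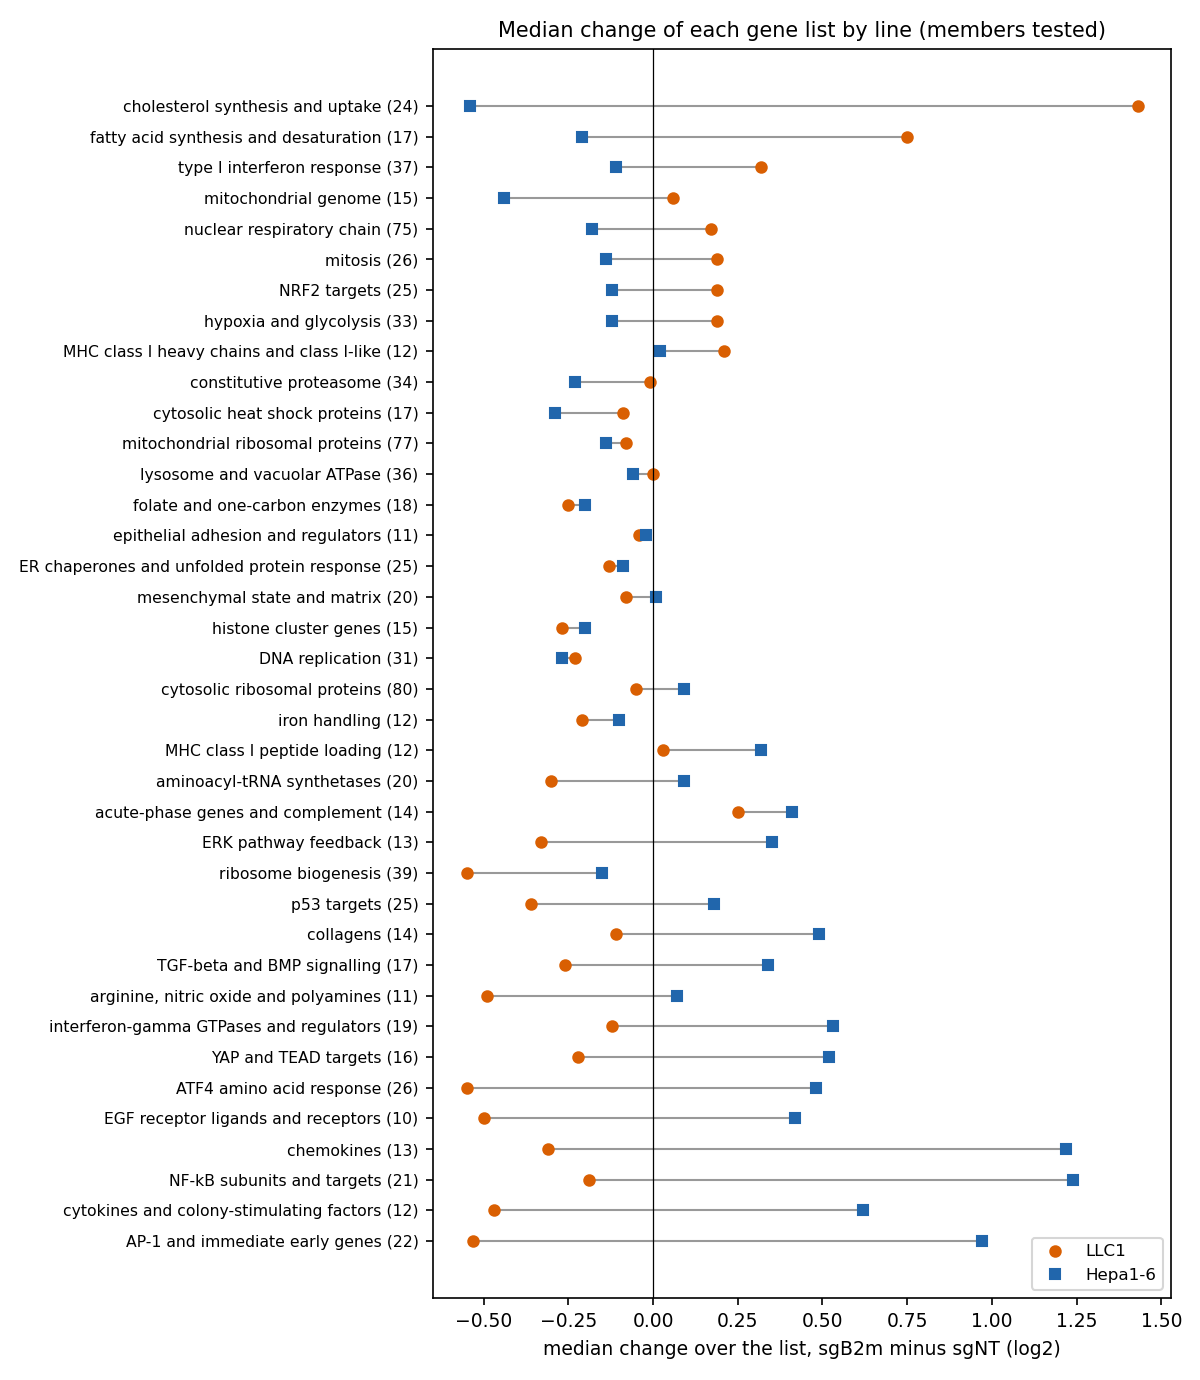
Median change between guides over the tested members of each list (log2; number tested in brackets), LLC1 as circles and Hepa1-6 as squares, ordered by the median difference. At the upper end of that order is cholesterol synthesis, with LLC1 on the right (1.43 against -0.54). At the lower end are AP-1 genes, with LLC1 on the left (-0.53 against 0.97). DNA replication, folate and chaperone lists have both medians below 0.

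**Figure D5:**
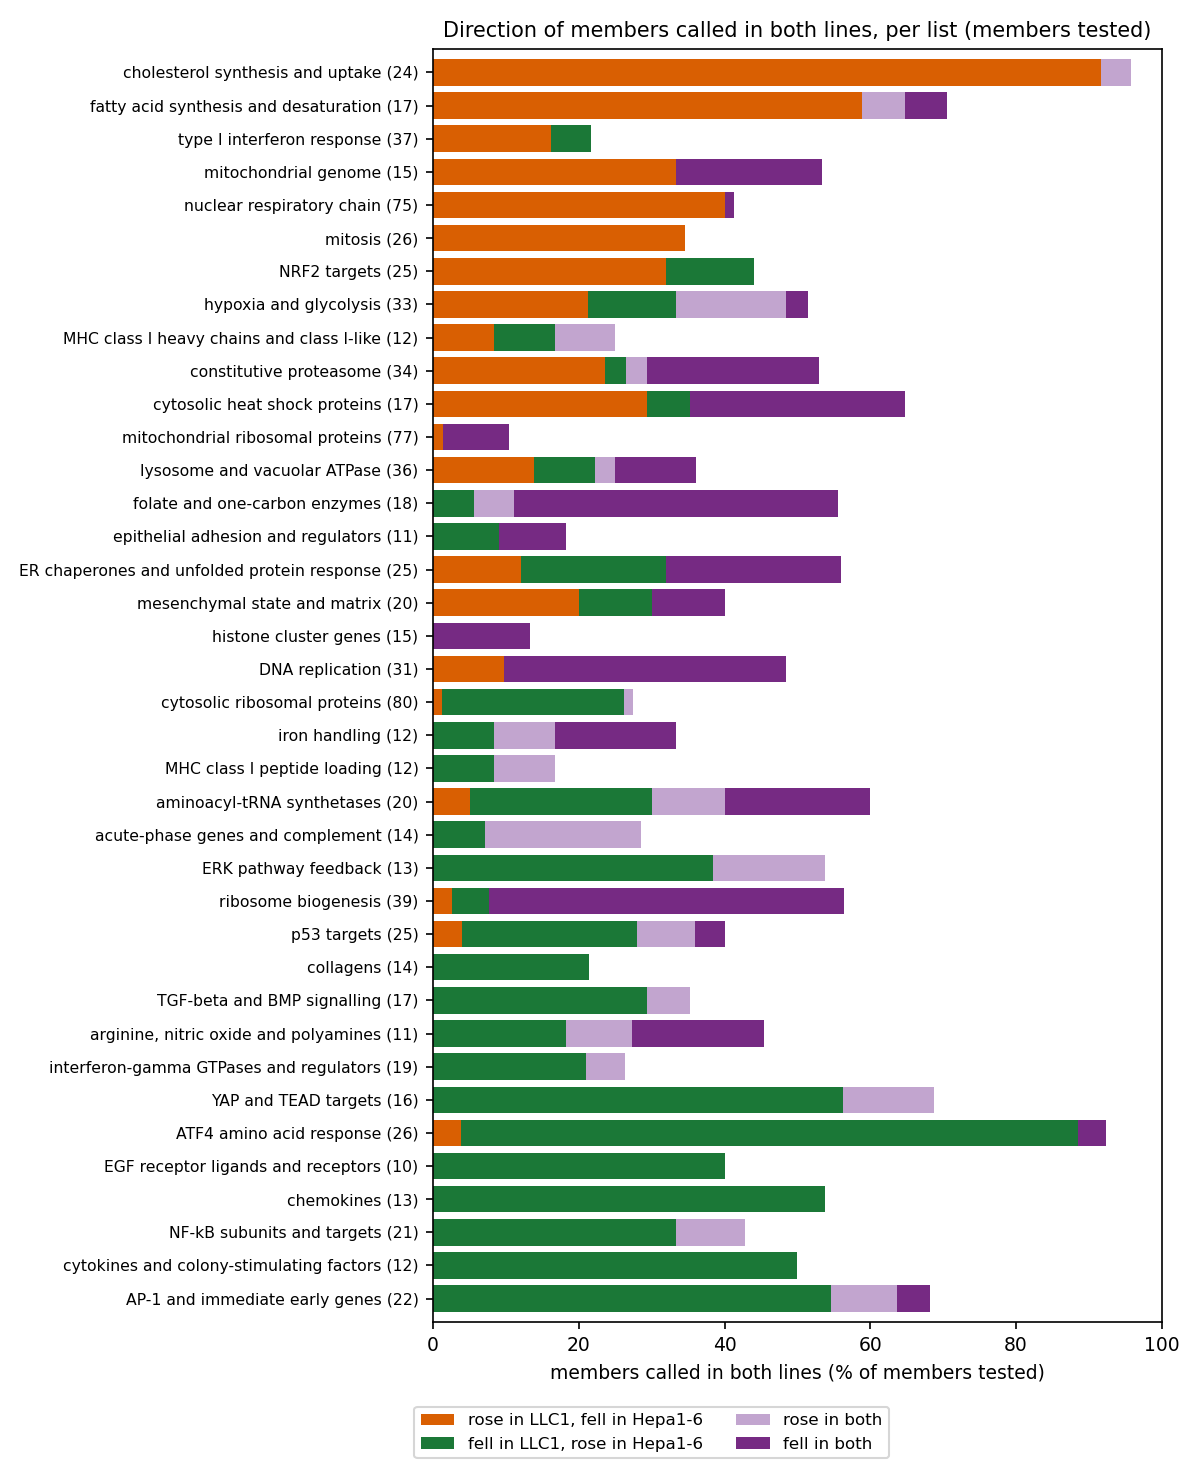
Share of tested members called in both lines (percent of members tested, bars start at 0), by direction. Orange rose in LLC1 and fell in Hepa1-6, green did the reverse, light purple rose in both and dark purple fell in both. Over all genes tested the shares are 6.52%, 7.55%, 2.96% and 4.19%.

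Individual genes also rose or fell in both lines. They were ranked in the same way, again leaving out genes whose guide groups overlapped in either line. Adamts1, a secreted metalloprotease, held 1993, 2023 and 2083 and then 7761, 7833 and 7833 counts in LLC1, and 4522, 4589 and 4628 and then 9658, 9545 and 10233 in Hepa1-6. It rose in each without overlap, by 1.94 ± 0.032 and 1.1 ± 0.032, and the difference of 0.84 ± 0.045 was called. Sema3c, a secreted guidance protein, rose by 1.63 ± 0.086 and 1.35 ± 0.086. Its difference of 0.28 ± 0.12 did not pass (adjusted p = 0.066) but did without LLC1 sgNT replicate 1 (0.0412) or Hepa1-6 sgNT replicate 2 (0.048).

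Bmf, a death-promoting BCL-2 family member, rose by 1.17 ± 0.14 and 0.87 ± 0.14, Birc3, an inhibitor of cell death and NF-kB target, by 0.82 ± 0.15 and 1.03 ± 0.15, and Serpinb6b, a serine protease inhibitor, by 0.82 ± 0.14 and 1.51 ± 0.14. Ptgs1, the constitutive cyclooxygenase, rose in both, by 0.29 and 2.11, in contrast to Ptgs2. Falling in both were Nptx1, a neuronal pentraxin (-0.98 ± 0.093 and -1.43 ± 0.093), Hist3h2a, a histone H2A gene (-0.91 ± 0.16 and -0.71 ± 0.16), and Khdrbs3, an RNA-binding protein (-0.86 ± 0.14 and -0.56 ± 0.14).

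Other genes of the same ranking stood closer to the threshold. Peli3, an E3 ligase of innate immune signalling, rose by 1.05 ± 0.27 and 1.1 ± 0.27. Pmp22, a myelin protein, rose by 1.35 ± 0.13 and 0.84 ± 0.13, and the call of its difference of 0.51 ± 0.19 was lost without any of 8 of the 12 libraries (adjusted p up to 0.0864, without LLC1 sgB2m replicate 1). Igsf3, an immunoglobulin superfamily member, fell in both, but in Hepa1-6 not without sgB2m replicate 1 (adjusted p = 0.0505) or sgNT replicate 2 (0.0815). The Hepa1-6 call of Tspan12, a tetraspanin of Norrin signalling, was lost without sgB2m replicate 1 (0.0769) or sgNT replicate 1 (0.0522), 2 (0.0759) or 3 (0.0519). Vangl2, a planar polarity protein, lost its Hepa1-6 call without sgB2m replicate 1 (0.108) or 2 (0.0589) or sgNT replicate 1 (0.173) or 3 (0.0683), and its LLC1 call without sgB2m replicate 1 (0.0595) or sgNT replicate 1 (0.0506). Rmi2, part of the complex that dissolves DNA crossovers, lost its Hepa1-6 call without sgB2m replicate 1 (0.101) or 3 (0.0782) or sgNT replicate 1 (0.0747) or 3 (0.134), and its LLC1 call without sgB2m replicate 3 (0.064) or sgNT replicate 3 (0.0734).

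Markers of other cell types moved with some of these groups. The summed normalised count of the myeloid markers was 501 to 648 in LLC1 sgNT and 375 to 441 in sgB2m, and 1118 to 1156 and then 2088 to 2306 in Hepa1-6, which is the direction of the chemokine and NF-kB lists. Of these 14 markers 10 had values in LLC1 and 12 in Hepa1-6. A mean log2 value of 6 was reached by 3 in LLC1 (Cd14, Cd68 and Lyz2). In Hepa1-6 it was reached by 4 (Cd14, Cd68, Csf1r and S100a9). Not all followed the sum. Csf1r went from a mean of 260 in Hepa1-6 sgNT to 146.5 in sgB2m. In LLC1 Lyz2 went from a mean of 117.5 to 139.8, and the guide groups of Lyz2 and of Cd14 overlapped. Ptprc, which marks all leukocytes, did not exceed 4.05 normalised counts in any library. The fibroblast markers summed to 39028 to 40423 in LLC1 sgNT and 89615 to 91975 in sgB2m, mostly Col3a1. Squamous markers summed to 8662 to 9194 in Hepa1-6 sgNT and 15279 to 16345 in sgB2m, mostly Sprr1a, and to at most 90 in any LLC1 library. Hepatocyte markers summed to 439709 to 446289 in Hepa1-6 sgNT and 402711 to 405155 in sgB2m. The part of these markers in the differences was not tested.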

How the data were processed

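Total RNA of cultured cells was made into strand-specific paired-end libraries, per the labels' protocols, and processed with FastQC 0.11.5, STAR and DESeq2 on mm10, per the submitters' processing notes. Other versions, the read counter, its strand setting and the annotation are not given in the sources used here. The deposited values are log2(count divided by a size factor + 1), 1 table per line, so each line was normalised on its own and levels of the 2 lines are not on one scale. All values were whole multiples of 1 read (within 0.05 reads), which gave the reads per library.

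Genes that reached 3.5 on the log2 scale in 3 or more libraries of each table were fitted with limma 3.58.1 (R 4.3.3). The fit had 1 mean for each of the 4 groups of 3 libraries, a spread per gene shared by the groups, and a variance trend. Each line's change, and the difference of the changes, were tested two-sided. Benjamini-Hochberg adjusted p-values run over all 13193 genes, and calls are below 0.05. Changes are on the log2(normalised count + 1) scale and understate low genes. The fit was tested on simulated data.

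Named genes are B2m and Cxcl16, the leading opposite and same-direction genes ranked by the smaller change of the 2 lines, the extreme differences (all averaging 6 or more on the log2 scale in 1 group of each table and a symbol that is not a placeholder), and in each list up to 6 members with the largest called difference. The leading opposite and same-direction genes also had to show no overlap between guide groups in either line. For genes named by that ranking, the lack of overlap is thus a condition and not a result. Insig1, Sqle, Srebf2, Psat1 and Atf5 were named after their values were seen. Some genes counted in the lists are not reported here. The comparison and the lists were chosen with earlier results of these data known. Promoters are from RefSeq (GRCm38.p6), of which 8863 of 12974 tested symbols had one. Alternatives were another pseudocount, filters, centring, quantile normalisation, variance models, limma-voom, a replicate block and leaving out each library. Coordinates are from the GENCODE annotation of mm10.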

Additional observations from a re-analysis of the deposited data

Results flagged for a closer look

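The interaction is itself a test of whether 2 lines differ under the same contrast, so every call of it is listed by its count, and the most extreme genes by value. It was called for 2904 genes with the higher change in LLC1 and 3129 with the lower. Opposite calls in the 2 lines were made for 860 genes that rose in LLC1 and fell in Hepa1-6 and for 996 that did the reverse.

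The gene the guide targets differed in the size of its fall, by -0.36 on the log2 scale for B2m. Cxcl16 differed by -2.67, falling in LLC1 and rising in Hepa1-6. Among named genes averaging 6 or more on the log2 scale in 1 group of each line, the largest upward differences were those of Scd4 (4.31), Hmgcs1 (2.93), Hacd4 (2.78), Idi1 (2.65), Cemip (2.61) and Acat2 (2.56), of which 3 belong to cholesterol synthesis and Scd4 rests on libraries that overlap. The largest downward differences were those of Mmp13 (-7.92), Ccl20 (-7.88), Nos2 (-6.23), Lcn2 (-5.67), Saa3 (-5.44) and Rgs16 (-5.06). The LLC1 changes of Nos2 and Saa3 did not pass (adjusted p = 0.0533 and 0.483), but did with a pseudocount of 8 (0.00116 and 0.0377), with limma-voom on the recovered reads (0.0104 and 1.66e-05) and without some single libraries, and for Nos2 also with a stricter filter (0.0384) or robust variance (0.0448).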

How the results depend on the processing

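Every count of calls over all genes stayed within 1.5 times its value under each alternative run. Centring each library on its median gave 3141 differences upward and 2958 downward, 949 and 895 opposite calls, and 339 rises and 664 falls in both lines. With no filter there were 744 and 853 opposite calls and 325 rises and 452 falls in both. Of 72 counts of at least 5 within the lists, compared under 21 alternatives each (a check added after the data were seen), 9 of 1512 moved by over 1.5 times. Those of lists described above stand beside their counts. Median differences of 41 lists, computed with centring, a pseudocount of 8 and a stricter filter, moved by up to 0.19 and none changed sign. The move reached the SD of the list's median among libraries of a group for 23 lists with centring. It did so for 11 with the stricter filter and for 6 with the pseudocount of 8. The list medians of each line alone were not recomputed in this check. Leaving out 1 library gave 2670 to 2849 and 2866 to 3050 differences, 737 to 822 and 880 to 983 opposite calls, and 332 to 374 and 458 to 525 same-direction calls. Differences that were not called changed sign when 1 library was left out for Peli3 (-0.27 to 0.13), Rmi2 (-0.22 to 0.05), Igsf3 (-0.31 to 0.03) and Vangl2 (-0.30 to 0.06), and the cause was not tested.

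Replicate numbers did not pair the libraries. Same-numbered libraries correlated at 0.074, -0.08 and -0.039 in LLC1 and 0.089, -0.006 and 0.069 in Hepa1-6 in their deviations from group means. With the replicate number as a block there were 2828 differences upward and 3061 downward, 817 and 960 opposite calls, and 362 rises and 508 falls in both. The block ended the Hepa1-6 calls of Vangl2 (adjusted p = 0.0671) and Rmi2 (0.0576) and the difference call of Pmp22 (0.0555), and gave Scd4 a Hepa1-6 call (0.00365).

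With no filter the Hepa1-6 calls of Vangl2 (0.0614) and Rmi2 (0.0593) were lost. With no filter or no variance trend, so were those of Mmp13 (0.092 and 0.0746) and Tspan12 (0.0657 and 0.0641), the difference call of Tspan12 (0.0637 and 0.061) and the LLC1 call of Scd4 (0.0888 and 0.0936, and 0.12 with robust variance). The Hepa1-6 change of Scd4 passed with a pseudocount of 8 (0.0268), a stricter filter (0.0348), centring (0.0495) and limma-voom (0.0119), and the difference of Sema3c with centring (0.0477) and no trend (0.0366).

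Fold changes of genes with few reads in 1 group depend on the pseudocount of 1, as for Mmp13, whose difference was -5.42 with a pseudocount of 8. With 3 libraries per group and no statement of separate cultures, the spread between independent edited populations is unknown.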

Other observations

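The other edited lines of the series did not take one side on the lists that opposed. Over the genes tested here and passing the level limit in each, the median change of the cholesterol list was 0.15 in MC38 (a colon carcinoma line) and 0.24 in AKR, between the 1.43 of LLC1 and the -0.54 of Hepa1-6. The ATF4 list had medians of 0.15 in MC38 and -0.54 in AKR, so that AKR was near LLC1 (-0.55). For type I interferon genes the MC38 median was 0.66, above the 0.32 of LLC1, and the AKR median 0.15. The NF-kB list had medians of 0.09 and 0.27 and the AP-1 list -0.01 and -0.07 in MC38 and AKR, against 1.24 and 0.97 in Hepa1-6. Ribosome biogenesis had a median of -0.16 in both MC38 and AKR, below 0 as in LLC1 and Hepa1-6. These are values with no test of the differences between lines.

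Genes that only 1 of the 2 lines expresses above the level limit stay outside the comparison. There were 2130 such genes in LLC1 and 1717 in Hepa1-6. Hepa1-6 hepatocyte genes are among them. Alb had 146402, 148791 and 150396 normalised counts in sgNT and 112044, 113087 and 115174 in sgB2m, and Afp 188946, 193198 and 191050 and then 195802, 195747 and 195148.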
